A study of Mus musculus with 12 samples.

Results

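Endothelial cells in which the genes of the kinases LATS1 and LATS2 were targeted for deletion, alone or together with those of YAP and TAZ, were compared as a single set with wild-type cells, and what both knockouts shared was described gene by gene. All 12 libraries of the series entered: 8 knockout libraries on one side and 4 wild-type (WT) libraries on the other. All cells were lung endothelial cells, sorted by flow cytometry at postnatal day 5 from C57BL/6J mice. The 4 libraries called L12-ECKO below carried VE-cadherin-CreERT2 with floxed Lats1 and Lats2, and the 4 called L12YT-ECKO carried floxed Yap and TAZ alleles in addition. The VE-cadherin promoter confines this tamoxifen-dependent Cre largely to endothelial cells. The labels do not say whether WT mice had the Cre or were given its inducer, so loss of the floxed genes and presence of Cre or inducer, which both knockouts share, cannot be told apart. Levels are given on the log2 scale of the authors' tables, which were quantile normalized from 3-prime sequencing; each step of 1 doubles the level, and 0 marks a gene at the floor of the table. The sequencing depth is unknown. No label ties a library to an animal of its own, and the p-values therefore rest on a spread between libraries that may be technical.

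LATS1 and LATS2 are the last kinases of the Hippo pathway. They phosphorylate the co-activators YAP and TAZ, which then stay out of the nucleus and cannot drive target genes with TEAD factors. L12-ECKO cells keep YAP and TAZ and L12YT-ECKO cells were designed to lack them, and the pooled comparison asks which genes stand away from WT on both sides of that divide. The type I interferon response, which enters the results below, runs from a secreted interferon through a receptor complex and transcription factors such as STAT2 and IRF9 to a large set of antiviral genes.

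The libraries differed in ways other than genotype. A block of 32 rows stood displaced by 1 row in 5 knockout libraries (L12-ECKO 2, 3 and 4, L12YT-ECKO 3 and 4) and in 0 WT libraries, so the authors' tables were not all made alike. Row by row, the block's correlation with WT was -0.081 to 0.037 in those 5 and 0.707 to 0.891 in the other 7, and its rows were left out. Genes above 0 numbered 11052 to 11229 in the WT libraries and 9804 to 13027 in the knockout libraries. The lowest value above 0 in a library was 3.009 to 3.162 in WT and 0.067 to 4.981 in the knockouts. Low values and 0 are therefore not alike between libraries. Xist and Ddx3y marked 5 libraries as female (WT 4, L12-ECKO 2, 3 and 4, L12YT-ECKO 3), and the 3 knockout libraries without displaced rows were male. Over genes, which are no replicates of each other, correlations ran from 0.668 to 0.697 between WT libraries, from 0.619 to 0.844 between knockout libraries and from 0.609 to 0.739 between a knockout and a WT library, and 0 pairs were identical.

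RNA of other cell types was also unequal. The summed level of 21 hepatocyte markers lay at 10.17 to 12.41 in the 5 knockout libraries with displaced rows, with 16 to 20 of the 21 above 0. It lay at 8.06 to 9.94 in WT and at 8.68 to 9.50 in the 3 remaining knockout libraries, with 2 to 7 of the 21 above 0. Alb, which encodes albumin, was at 6.13 to 9.11 in the 5 libraries and at 0 to 5.22 in the other 7. The summed level of the myeloid markers was 16.54 in L12-ECKO 1 and 7.13 to 11.81 in the other 11 libraries; S100a8, a neutrophil calprotectin subunit, was at 15.20 in that library and at 0 to 10.07 elsewhere. The summed level of the 26 pan-endothelial markers was 18.56 to 18.6 in WT, 18.44 to 18.49 in L12-ECKO and 18.53 to 18.66 in L12YT-ECKO. All 26 were above 0 in every library. Egfl7 stood at 17.72 in every library and makes up a large part of the sum, so the sum could move little. In bulk RNA, fewer cells of a type and less RNA per cell cannot be told apart. The leading genes are therefore also given in L12-ECKO 1, L12YT-ECKO 1 and L12YT-ECKO 2, the 3 knockout libraries free of displaced rows and without the raised hepatocyte markers.

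**Figure D1:**
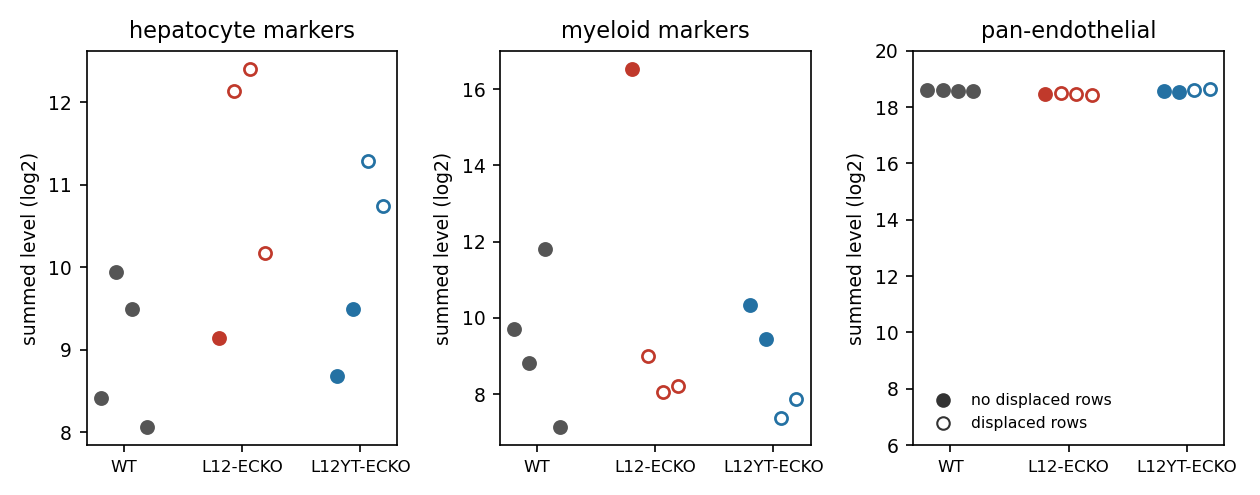
Summed level (log2) of hepatocyte, myeloid and pan-endothelial markers in each library, by group; filled points have no displaced rows and open points have them. The open points lead for hepatocyte markers (10.17 to 12.41), L12-ECKO 1 stands alone for myeloid markers (16.54), and the pan-endothelial sums lie within 18.44 to 18.66. Egfl7, at 17.72 in every library, makes up a large part of the pan-endothelial sums.

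The targeted genes were read first. Lats1 stood at 6.99, 5.32, 5.50 and 7.45 in the 4 WT libraries, at 7.40, 1.28, 0 and 5.78 in L12-ECKO and at 7.90, 0, 7.11 and 7.53 in L12YT-ECKO. Its knockout libraries thus spanned the WT range, with 2 above it and 3 below it, and the pooled difference was -1.69 (adjusted p = 0.737 by limma). Lats2 was at 8.42 to 9.34 in WT and at 8.63 to 10.33 in the knockouts, a pooled difference of 0.52 (adjusted p = 0.632 by limma). A 3-prime tag need not lie in the deleted exons, so these levels check little. Yap1 was at 9.46 to 10.02 in WT, 9.35 to 10.45 in L12-ECKO and 6.69 to 8.20 in L12YT-ECKO. Wwtr1, which encodes TAZ, was at 11.56 to 12.01 in WT, 10.11 to 11.57 in L12-ECKO and 8.16 to 9.37 in L12YT-ECKO. Between the knockouts both were lower where YAP and TAZ were targeted, with adjusted p = 0.0388 for Yap1 and 0.00522 for Wwtr1 by limma over 3 group means.

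With both knockouts pooled a small set of genes passed the test, and all of these were higher. Isg15 and Bst2, a pair of interferon-stimulated genes, and Pim3, a serine/threonine kinase that favours survival, rose in the 8 knockout libraries. They were 3 of 11634 genes tested (0.0258%) at an adjusted p under 0.05 in limma, and the 3 higher ones are the same 0.0258%. No gene passed as lower (0 of 11634, 0%). At an unadjusted p under 0.05, 1207 genes (10.4%) differed, 769 of them higher (6.61%) and 438 lower (3.76%). Of all genes tested, 5887 (50.6%) had a pooled difference above 0, and the median difference was 0.01. For comparison, the same fit with 3 group means called 56 genes (0.481%) in L12-ECKO against WT, 1 gene (0.0086%) in L12YT-ECKO against WT and 8 genes (0.0688%) between the knockouts; the first 2 counts share the WT libraries. Against WT alone L12-ECKO gave an adjusted p of 0.0167 for Isg15, 0.0331 for Bst2 and 0.0032 for Pim3, and L12YT-ECKO one of 0.184, 0.184 and 0.228 by limma, so none of the 3 passed in L12YT-ECKO by itself.

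Isg15 encodes a ubiquitin-like protein that is conjugated to other proteins during the antiviral response. The gene lies on the minus strand of chromosome 4, at positions 156199424 to 156200818 of GRCm38, the mm10 assembly. Bst2 encodes tetherin, a membrane protein that holds budding virus particles at the cell surface. It lies on the minus strand of chromosome 8, at positions 71534255 to 71537456. The 250 bases before the start of each are shown because these are the called members of the gene list with the most calls, that of the interferon response. The sequences are those of RefSeq for GRCm38.p6 at chr4:156200819-156201068 and chr8:71537473-71537722, both on the minus strand and printed 5′ to 3′ in gene orientation. Capitals mark matches of GAAANNGAAA, a core of the interferon-stimulated response element.

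Isg15: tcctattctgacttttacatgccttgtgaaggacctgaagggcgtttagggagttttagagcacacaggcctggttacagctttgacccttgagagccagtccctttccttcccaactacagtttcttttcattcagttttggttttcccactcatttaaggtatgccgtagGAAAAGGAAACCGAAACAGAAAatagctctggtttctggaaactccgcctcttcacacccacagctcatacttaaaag

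Bst2: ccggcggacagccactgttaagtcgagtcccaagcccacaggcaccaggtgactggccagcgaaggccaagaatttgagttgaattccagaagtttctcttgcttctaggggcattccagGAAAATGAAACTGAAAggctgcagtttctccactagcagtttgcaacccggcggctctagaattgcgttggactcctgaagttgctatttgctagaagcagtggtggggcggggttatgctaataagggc

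The Isg15 window holds 3 overlapping matches, the first starting at -78 and the last at -66 relative to the start of transcription. The Bst2 window holds 2 overlapping matches, starting at -130 and -124. Searched on both strands, the motif occurs in 978 of 32851 promoter windows of this length (2.98%) and in 276 of the 8781 tested genes that have a window (3.14%). Of the 26 interferon list members tested, 20 have a window, and 6 of these hold it: Isg15, Bst2, Rsad2, Ifit1, Ifit3 and Stat2. A match of letters describes the window and does not show that a factor binds there.

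For Isg15 the WT libraries stood at 7.20, 7.04, 4.66 and 5.39. The L12-ECKO libraries stood at 9.27, 9.78, 9.39 and 11.71, and the L12YT-ECKO libraries at 9.20, 8.52, 11.18 and 9.80. Every knockout library was above every WT library, and the gap between the highest WT and the lowest knockout value was wider than 1 on this scale. The pooled difference was 3.78 ± 0.58 (SE), a 13.8-fold change, with a 95% interval of 2.56 to 5.003 (adjusted p = 0.0227 by limma). It was 3.96 in L12-ECKO and 3.60 in L12YT-ECKO, and the difference between the knockouts was -0.36 with a 95% interval of -1.82 to 1.10. That interval leaves room for a difference of more than 2-fold in either direction. In the 3 libraries free of displaced rows Isg15 was at 8.52 to 9.27, still above all WT, and the difference of these 3 from WT was 2.92 (unadjusted p = 0.00202, adjusted p = 0.627 by limma).

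Bst2 stood at 10.12, 11.33, 11.86 and 11.57 in WT, at 12.70, 13.33, 12.67 and 14.03 in L12-ECKO and at 13.11, 12.82, 13.95 and 12.98 in L12YT-ECKO. The groups again did not overlap, and WT 1 was the low value of its group. The pooled difference was 1.98 ± 0.32 (SE), a 3.94-fold change, with a 95% interval of 1.31 to 2.64 (adjusted p = 0.0227 by limma). The knockouts gave 1.96 and 1.99, and the interval of their difference ran from -0.77 to 0.84. With the 3 libraries free of displaced rows, which were at 12.70 to 13.11, the difference was 1.65 (unadjusted p = 0.000317, adjusted p = 0.42 by limma).

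Pim3 lies on the plus strand of chromosome 15 at positions 88862186 to 88865726. The WT libraries read 9.996, 10.37, 10.87 and 11.25, the L12-ECKO libraries 13.03, 12.73, 12.02 and 12.71, and the L12YT-ECKO libraries 11.80, 11.85, 12.40 and 12.11. No knockout value fell within the WT range, and 3 of the 4 L12-ECKO values lay above the highest L12YT-ECKO value. The pooled difference was 1.71 ± 0.28 (SE), a 3.27-fold change, with a 95% interval of 1.13 to 2.29 (adjusted p = 0.0227 by limma). L12-ECKO gave 2.00 and L12YT-ECKO 1.42, a difference of -0.58 with an interval of -1.20 to 0.03. Over the 7 libraries without displaced rows the difference from WT was 1.61 (unadjusted p = 0.000581, adjusted p = 0.42 by limma).

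**Figure D2:**
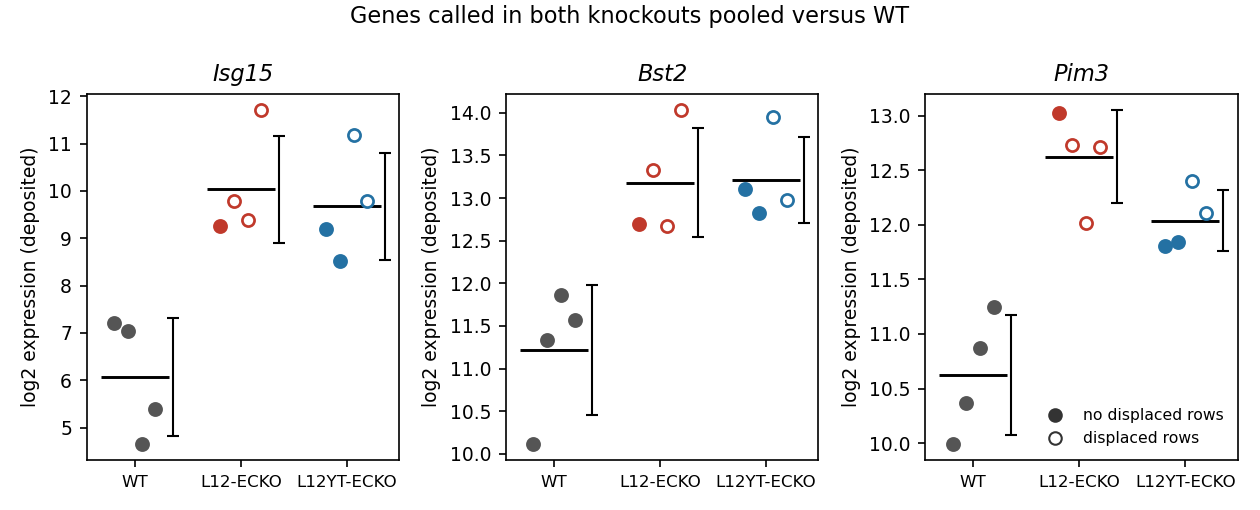
Deposited log2 expression of Isg15, Bst2 and Pim3 in each library, by group; horizontal lines are group means, error bars are 1 SD, and open points are libraries with displaced rows. For each gene all 8 knockout points lie above all 4 WT points, and the filled knockout points of Isg15 lie at 8.52 to 9.27 against a highest WT value of 7.20.

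The calls were not made when the processing split was taken into account. Over the 7 libraries without displaced rows limma called 0 genes, with a lowest adjusted p of 0.297 and 777 genes at an unadjusted p under 0.05. With the displaced rows as a covariate over all 12 it also called 0, with a lowest adjusted p of 0.251 and 832 genes at an unadjusted p under 0.05. Because no WT library has displaced rows, that fit takes the pooled difference from the same 7 libraries.

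The 9 genes next in line by p on the higher side did not pass the test (adjusted p from 0.1 to 0.125 by limma). They fall into a few roles. Socs3, the feedback inhibitor of cytokine receptors that signal through JAK and STAT proteins, was at 6.34, 6.51, 8.86 and 7.87 in WT. Its knockout values ran from 8.997 through a median of 9.43 to 11.11, above all WT values, and the pooled difference was 2.28 (adjusted p = 0.125 by limma). L12-ECKO 1 held the highest value, and the group differences were 2.80 in L12-ECKO and 1.75 in L12YT-ECKO. Gas6, the secreted ligand of the TAM receptors Axl, Tyro3 and Mer, was at 8.26, 8.86, 9.77 and 9.29 in WT and at 10.11 to 11.76 in the knockouts (median 10.68). The pooled difference of 1.84 (adjusted p = 0.125 by limma) was made up of 2.33 in L12-ECKO and 1.35 in L12YT-ECKO. The difference between the knockouts was -0.98 with a 95% interval of -1.75 to -0.21, but did not pass over all genes (adjusted p = 0.672 by limma).

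Nr4a1, an immediate-early nuclear receptor, was at 6.61, 5.73, 7.19 and 8.06 in WT and at 8.16 to 10.58 in the knockouts (median 9.11), a difference of 2.32 (adjusted p = 0.125 by limma). The lowest knockout value, that of L12YT-ECKO 1, stood next to the highest WT value. Sik1, a salt-inducible kinase that restrains CREB co-activators, was at 4.08, 5.91, 6.63 and 4.46 in WT and at 6.98 to 9.47 in the knockouts (median 8.06), a difference of 3.02 (adjusted p = 0.125 by limma). Both genes were higher in all 8 knockout libraries than in any WT library.

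Llgl1, a cell polarity protein, was at 10.18 to 10.71 in WT and at 11.20 to 12.44 in the knockouts, a difference of 1.38 (adjusted p = 0.1 by limma). Trim11, a ubiquitin ligase of the tripartite motif family, was at 6.61 to 8.86 in WT and at 8.74 to 10.22 in the knockouts, a difference of 2.07. Eif4a2, an RNA helicase of translation initiation, was at 9.42 to 10.25 in WT and at 10.43 to 12.24 in the knockouts, a difference of 1.40. For Trim11, L12-ECKO 3 fell just inside the WT range, and the other 7 knockout libraries lay above it. Gpn2, a small GTPase, was at 0, 4.94, 4.10 and 6.41 in WT and at 6.80 to 9.40 in the knockouts. Mtmr7, a myotubularin-related phosphatase, was listed at 0 in 3 WT libraries and at 5.50 in WT 3, and stood at 5.35 to 8.68 in the knockouts. The last pair contains values at the table's floor, so their differences of 4.48 and 5.80 rest on where that floor lies. The 3-prime ends of Llgl1, Gas6, Mtmr7 and Eif4a2 overlap or adjoin a gene on the other strand in GENCODE M21 (Flii, Tmem255b, Vps37a and Rfc4), and Eif4a2 also hosts small nucleolar RNAs. Whether reads were counted by strand is not given in the sources used here, so these genes' values could include reads of the neighbour.

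On the lower side no gene passed, and the 12 genes with the smallest p had adjusted p from 0.125 to 0.21 by limma. Sema3c, a secreted semaphorin and a marker of general capillary cells of the lung, was at 11.18, 11.16, 10.31 and 10.14 in WT. It was at 8.78, 8.84, 8.46 and 8.97 in L12-ECKO and at 10.09, 9.44, 8.98 and 9.73 in L12YT-ECKO. All 8 knockout values lay below all WT values, although L12YT-ECKO 1 was only just below WT 4. The pooled difference was -1.54 (adjusted p = 0.125 by limma), with -1.94 in L12-ECKO and -1.14 in L12YT-ECKO, and the difference between the knockouts was 0.80 with a 95% interval of 0.05 to 1.54 (adjusted p = 0.791 by limma). Smad7, the inhibitory SMAD that damps TGF-beta signalling, was at 11.38, 11.27, 10.98 and 10.63 in WT and at 8.94 to 10.58 in the knockouts (median 10.06), a difference of -1.12 (adjusted p = 0.21 by limma). Here too the groups did not overlap, by a margin under 0.1 between WT 4 and L12YT-ECKO 2.

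Another set of genes low in the knockouts encodes cytoskeletal and membrane proteins. Rdx, which encodes radixin, a linker of actin to the plasma membrane, was at 13.50 to 14.60 in WT and at 11.95 to 13.61 in the knockouts, a difference of -1.13 (adjusted p = 0.125 by limma). Add3, an adducin of the spectrin and actin skeleton, was at 12.94 to 13.77 in WT and at 11.68 to 12.99 in the knockouts, a difference of -1.01. Each had 7 of 8 knockout libraries below all WT libraries, the exception being L12YT-ECKO 1 for Rdx and L12YT-ECKO 4 for Add3. Ckap5, a microtubule polymerase of the mitotic spindle, was at 8.90 to 10.67 in WT and at 7.62 to 8.87 in the knockouts, a difference of -1.43 (adjusted p = 0.21 by limma).

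The remaining members have other roles. Nedd4, a ubiquitin ligase, was at 11.36 to 11.94 in WT and at 10.24 to 11.09 in the knockouts. Trim24, a chromatin reader that acts on nuclear receptors, was at 10.28 to 11.24 in WT and at 8.32 to 9.92 in the knockouts. Mef2a, a transcription factor of the MEF2 family, was at 12.89 to 13.40 in WT and at 11.96 to 12.96 in the knockouts. Their differences were -0.96, -1.29 and -0.79, and only for Mef2a did the groups overlap, through L12YT-ECKO 1. The 3-prime end of Mef2a lies within Lysmd4 on the other strand, so its value could include reads of that gene. Among mitochondrial proteins, Immt, a scaffold of the inner membrane's cristae junctions, was at 11.78 to 12.37 in WT and at 8.81 to 11.23 in the knockouts. Opa3, a mitochondrial membrane protein, was at 8.70 to 9.80 in WT and at 6.59 to 8.42 in the knockouts. Their differences were -1.36 and -1.62, with no overlap between the groups. Gen1, a nuclease that resolves DNA junctions, was at 4.83 to 6.64 in WT and at 0 in 6 of the 8 knockout libraries, with 0.86 in L12-ECKO 4 and 3.14 in L12YT-ECKO 1. Snora64, a small nucleolar RNA, was at 6.28 to 7.35 in WT and at 0 in 6 knockout libraries, with 3.24 in L12-ECKO 1 and 6.29 in L12YT-ECKO 1. Snora64 lies within Rps2 on the same strand, so its reads may belong to Rps2. Gen1 and Snora64 hold values at the table's floor, so their differences of -5.22 and -5.72 rest on where that floor lies.

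**Figure D3:**
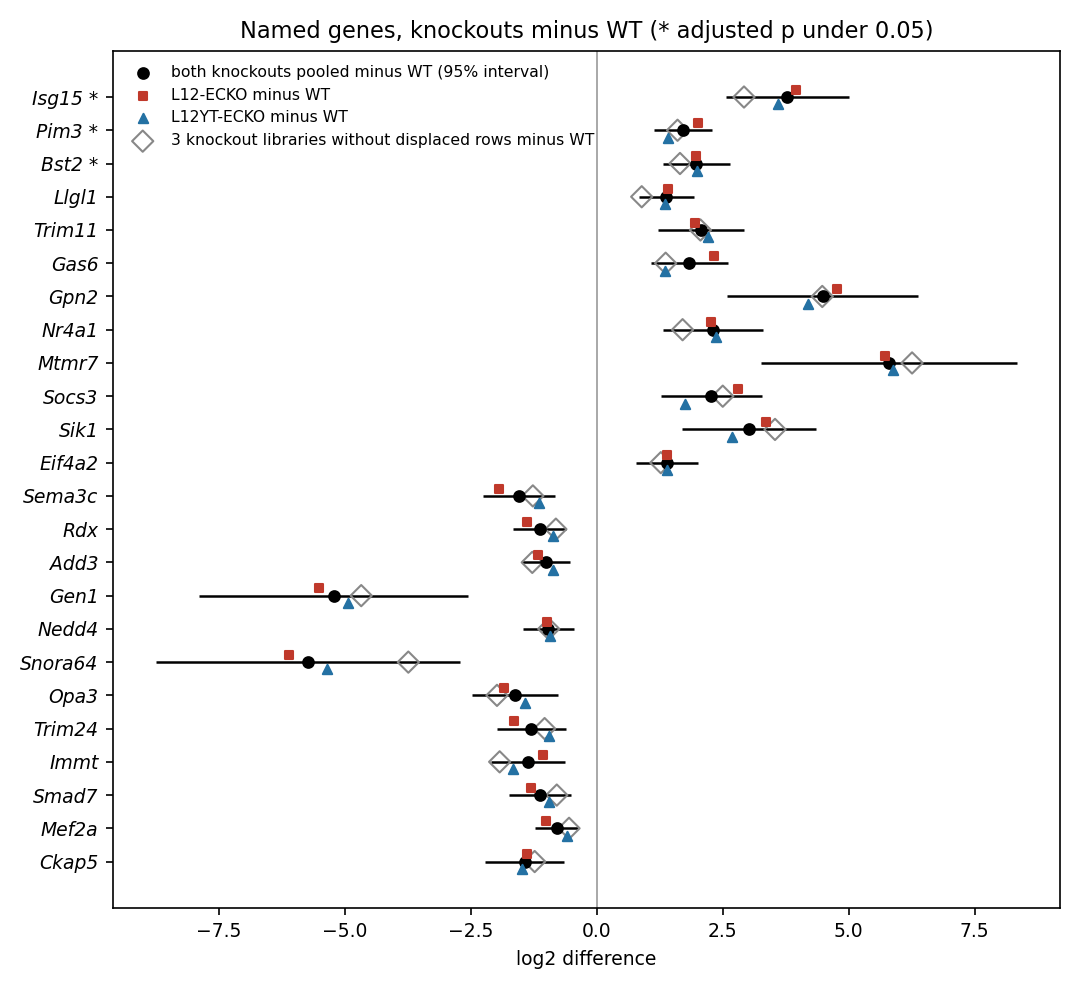
Log2 difference from WT of the 12 higher and 12 lower genes with the smallest p; black points with 95% intervals are both knockouts pooled, squares L12-ECKO, triangles L12YT-ECKO and diamonds the 3 knockout libraries without displaced rows. Asterisks mark the 3 genes that passed, and for each of the 24 genes all 4 symbols lie on the same side of 0.

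The 24 genes were ranked by a pooled p over these same 12 libraries, which favours every count that follows, so the counts are descriptions. All 24 had the same sign in both knockouts. Among the 12 higher genes 10 had all 8 knockout libraries above all WT libraries, and among the 12 lower genes 8 had all below. Over all genes tested, 69 lay wholly above WT (0.593%) and 69 wholly below (0.593%). The 3 libraries without displaced rows lay above all WT libraries for 12 of the 12 higher genes, and below for 9 of the 12 lower genes, the exceptions being Rdx, Snora64 and Mef2a. The same holds for 424 of all genes in the upward direction (3.64%) and 449 in the downward direction (3.86%). Gen1, which is in both counts of lower genes, passed the filter on low values only through the WT libraries. On the higher side Mtmr7 was at 0 in 3 WT libraries and Gpn2 in 1. Both reached the 4 libraries of that filter only with knockout libraries, which favours their places in the counts of higher genes. Over the 7 libraries without displaced rows, each of the 24 kept its sign at an unadjusted p under 0.05, and none passed the adjustment. The difference was larger in L12-ECKO for 7 of the 12 higher and 10 of the 12 lower genes. None of the 24 was called between the knockouts (lowest adjusted p = 0.672 by limma), and the 95% interval of that difference excluded 0 for 2, Gas6 and Sema3c.

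The classic YAP and TAZ targets differed between the knockouts. Ctgf, a matricellular protein induced by YAP and TEAD, was at 5.84, 7.68, 9.08 and 7.89 in WT, at 14.44, 12.71, 13.33 and 14.74 in L12-ECKO and at 9.48, 8.70, 10.16 and 9.96 in L12YT-ECKO. Its pooled difference of 4.07 (adjusted p = 0.338 by limma) joins 6.18 in L12-ECKO with 1.95 in L12YT-ECKO. Cyr61, its close relative, gave 2.48 (adjusted p = 0.431 by limma), from 4.22 and 0.75. Both fell from L12-ECKO to L12YT-ECKO, by 4.23 for Ctgf (adjusted p = 0.019 by limma) and by 3.47 for Cyr61 (adjusted p = 0.00522 by limma). The spread between the knockouts enters the error of the pooled fit, which was 1.27 (SE) for Ctgf. Over the whole list of 17 tested YAP and TAZ targets, 16 were above and 1 below WT in the pooled comparison, 0 were called and 5 were higher at an unadjusted p under 0.05. The list's median was 1.53 in L12-ECKO and 0.44 in L12YT-ECKO. The members with the highest mean, Amotl1 and Asap1, had pooled differences of 0.33 and -0.25.

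Interferon response genes were the list with the most called members. Of 30 listed, 26 passed the filter on low values, 24 were above WT and 2 below, 2 were called (Isg15 and Bst2), and 12 were higher against 0 lower at an unadjusted p under 0.05. Their median difference was 1.58, against 0.01 over all genes tested, and the shares over all genes were 50.6% above WT, 0.0258% called and 6.61% higher at an unadjusted p under 0.05. These shares, and 3.76% lower at that p, stand beside the counts of every other list too. Members named from here on within a list were, unless the rule for named genes selects them, chosen after their values were seen. The effectors Ifit1 and Ifit3, which bind viral RNA, were at 0 in 3 of the 4 WT libraries each. Ifit1 was at 3.22 to 7.55 in the knockouts against a highest WT value of 3.08, and Ifit3 at 3.10 to 9.18 against 3.90. Rsad2, which encodes the antiviral enzyme viperin, was at 5.94 to 7.89 in WT and at 7.86 to 10.15 in the knockouts, a difference of 1.94 (adjusted p = 0.166 by limma). All 3 are effector genes, and none of them passed the test.

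The factors that carry the response were less even. Irf7, which amplifies interferon production, was at 0 to 8.35 in WT and at 6.51 to 9.95 in the knockouts, a difference of 3.42 (adjusted p = 0.37 by limma). Irf9, the DNA-binding partner of STAT2, had a difference of 1.05 and Stat2 one of 1.77, with adjusted p of 0.369 and 0.619 by limma. Stat2 was at 0 to 8.37 in WT and at 5.60 to 8.50 in the knockouts, so the groups overlapped. Sp100 and Ifi35 were the 2 members below WT, by -2.55 and -0.29. Only 3 of the 26 members (Isg15, Bst2 and Ifit1) lay above WT in all 8 knockout libraries, where 0.593% of all genes did. Ifit1 was under 1 CPM (a value of 3.56) in every WT library. It passed the filter only through knockout libraries, which favours its place in that count. In each library the list's median, taken as value minus WT mean, was -0.39 to 0.15 in WT. The L12-ECKO libraries gave 0.89, 0.63, 1.33 and 2.42, and the L12YT-ECKO libraries 1.45, 1.66, 2.28 and 1.96, so all 8 knockout libraries lay above all WT libraries. The 2 highest were L12-ECKO 4 and L12YT-ECKO 3, both with displaced rows, and the 3 libraries without them gave 0.89, 1.45 and 1.66. In those 3 libraries 4 of the 26 members, Ifit1 among them, lay above all WT libraries, against 3.64% of all genes. L12-ECKO 1, with the high myeloid sum, had the second lowest knockout median; the part of other cell types in the list's level was not tested.

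**Figure D4:**
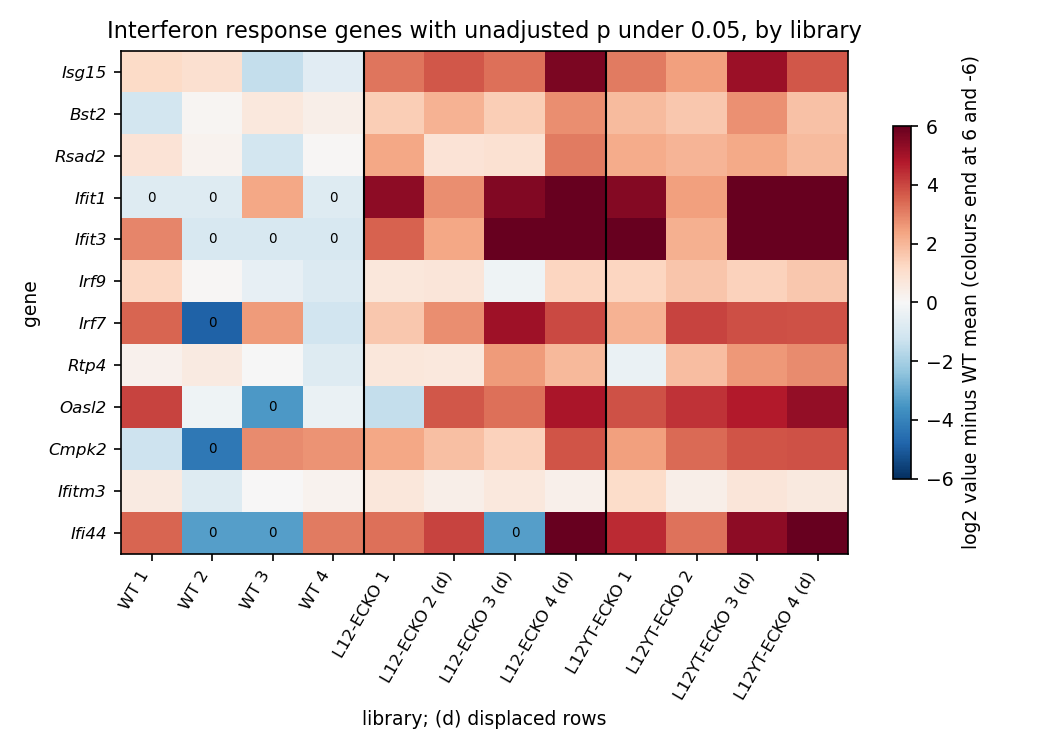
Difference from the WT mean (log2, colours end at 6 and -6) in each library of the 12 interferon list members with an unadjusted p under 0.05, the smallest p at the top; a printed 0 marks a value of 0 in the table, and (d) marks libraries with displaced rows. Isg15 and Bst2 are raised in all 8 knockout libraries, and further down Ifi44 and Oasl2 also hold libraries below the WT mean.

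MHC class I presentation genes, which load peptides for T cells and respond to interferon, stood nearer to WT as a list. Of 11 tested, 9 were above and 2 below WT, 0 were called and 3 were higher at an unadjusted p under 0.05, with a median of 0.40. The 3 belong to peptide supply. Tap2, a subunit of the peptide transporter, was at 5.26 to 9.05 in WT and at 8.96 to 11.93 in the knockouts, a difference of 3.28 (adjusted p = 0.125 by limma). Psmb9, an inducible subunit of the immunoproteasome, was at 4.66 to 7.33 in WT and at 7.59 to 9.08 in the knockouts, without overlap, a difference of 2.30 (adjusted p = 0.125 by limma). Tap1, the other transporter subunit, had a difference of 1.03 (adjusted p = 0.307 by limma). The class I chains H2-D1, H2-K1 and B2m were closer to WT, with differences of 0.40, 0.54 and 0.35, and each overlapped with WT. H2-T23, another class I chain, went the other way. It was at 3.64 to 5.80 in WT and at 0.82 to 5.50 in the knockouts (median 2.83), with 7 of 8 knockout libraries below all WT libraries. One WT library, WT 3, had a list median of 0.73, above the highest knockout median of 0.69.

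Targets of p53, the factor that answers DNA damage, stood at a similar height in all 8 knockout libraries. Of 22 tested, 21 were above WT and 1 below (Ddb2), 0 were called, and 9 were higher against 0 lower at an unadjusted p under 0.05. The median difference was 0.67. The list's median per library was 0.93, 0.82, 0.69 and 0.92 in L12-ECKO, 1.03, 0.84, 0.70 and 0.86 in L12YT-ECKO and -0.06 to 0.16 in WT. The 3 libraries without displaced rows were at 0.93, 1.03 and 0.84. Bax, a pore former of the mitochondrial death pathway, was at 10.78, 10.21, 9.93 and 10.57 in WT. It was at 11.32, 11.75, 11.17 and 11.43 in L12-ECKO and at 11.26, 11.25, 12.004 and 11.48 in L12YT-ECKO, with no overlap, a difference of 1.08 (adjusted p = 0.125 by limma). Cdkn1a, whose product p21 stops the cell cycle, was at 9.41 to 11.22 in WT and at 10.59 to 13.27 in the knockouts, a difference of 1.18 (adjusted p = 0.409 by limma). Zmat3 and Aen had differences of 2.07 and 1.50. For 7 of the 22 members all 3 libraries without displaced rows lay above all WT libraries, as they did for 3.64% of all genes. Mdm2, the ligase that removes p53, had a difference of 0.70 (adjusted p = 0.511 by limma).

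Immediate-early and stress genes, which answer growth factors and stress within a short time, were also mostly above WT. Of 23 tested, 21 were above and 2 below, 0 were called, and the median was 0.87. At an unadjusted p under 0.05, 13 were higher and 0 lower. Besides Nr4a1, the phosphatase gene Dusp1 and the zinc finger gene Klf6 lay above WT in all 8 knockout libraries. Dusp1 was at 10.89 to 11.61 in WT and at 11.96 to 12.54 in the knockouts, and Klf6 at 10.53 to 10.80 in WT and at 11.20 to 12.48 in the knockouts. Their differences were 0.92 and 1.23 (adjusted p = 0.125 for both by limma). The members with the highest mean gave smaller values, 0.41 for Jun and 0.16 for Klf4. Myc was listed at 0 in all 4 WT libraries and in 2 of the 8 knockout libraries. The list's median was -0.18 to 0.32 in WT, 0.00 to 1.42 in L12-ECKO and 0.53 to 1.09 in L12YT-ECKO; L12-ECKO 3 stood within the WT range and L12-ECKO 1 was the highest. In the 3 libraries without displaced rows 10 of the 23 members lay above all WT libraries, against 3.64% of all genes.

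Endothelial inflammation genes, mostly targets of NF-kB, were mostly above WT but overlapped with it as a list. Of 11 tested, 9 were above and 2 below WT, 0 were called, 5 were higher at an unadjusted p under 0.05, and the median was 1.54. Nfkbia, the inhibitor that NF-kB itself induces, was at 12.19, 12.13, 12.19 and 12.10 in WT and at 12.32 to 13.77 in the knockouts (median 12.71), without overlap. Its difference was 0.68 (adjusted p = 0.338 by limma), and L12-ECKO 1 held the highest value. Relb, an NF-kB subunit, was at 5.91 to 9.73 in WT and at 8.33 to 10.43 in the knockouts, a difference of 1.87 (adjusted p = 0.306 by limma). The list's median was 3.89 in L12-ECKO 1, the library with the myeloid sum of 16.54, and 0.65 to 2.52 in the other 7 knockout libraries. WT 3, with the highest myeloid sum of its group (11.81), had a list median of 1.75, so WT and knockouts overlapped; the part of myeloid RNA was not tested.

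Among vascular identity genes, markers of general capillary cells were mostly below WT. Of 15 tested, 13 were below and 2 above, 0 were called, and 5 were lower and 0 higher at an unadjusted p under 0.05, with a median of -0.31. The median per library was -0.76 to -0.46 in L12-ECKO, -0.45 to -0.07 in L12YT-ECKO and -0.21 to 0.11 in WT. Besides Sema3c, the integrin gene Itga1 lay below WT in all 8 knockout libraries, at 8.83 to 9.42 in WT and at 6.53 to 8.60 in the knockouts (difference -1.29, adjusted p = 0.323 by limma). Tek, the angiopoietin receptor, and Gpihbp1, the capillary anchor of lipoprotein lipase, had differences of -0.81 and -0.64 (adjusted p = 0.319 and 0.369 by limma), each with 7 of 8 knockout libraries below all WT libraries. Ackr3, 1 of the 2 members above WT, was at 11.17 to 11.88 in WT and at 11.17 to 12.73 in the knockouts (median 12.05). The members with the highest mean, Cd93 and Cd36, had differences of -0.37 and -0.76. For Cd93 this joins -0.75 in L12-ECKO with 0.00 in L12YT-ECKO, so the pooled value describes neither group.

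BMP and TGF-beta signalling genes showed a smaller shift of the same sign. Of 18 tested, 13 were below and 5 above WT, 0 were called, 3 were lower and 1 higher at an unadjusted p under 0.05, and the median was -0.22. The list's median was -0.302 in L12-ECKO and -0.108 in L12YT-ECKO. Library medians overlapped, at -0.535 to 0.068 in the knockouts and -0.112 to 0.118 in WT. The receptors Acvrl1 and Eng, the members with the highest mean, were at 14.06 to 15.003 and at 13.45 to 14.13 in the knockouts, against 14.66 to 14.93 and 13.72 to 14.11 in WT.

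Tip cell and sprouting genes, which mark the leading cells of growing vessels, were divided. Of 15 tested, 11 were above and 4 below WT, 0 were called, and 5 were higher against 1 lower at an unadjusted p under 0.05, with a median of 0.50. Angpt2, the antagonist of the receptor TEK released by activated endothelium, was at 0 to 5.74 in WT and at 6.50 to 10.64 in the knockouts, without overlap. Its difference was 3.70 (adjusted p = 0.257 by limma), with 4.31 in L12-ECKO and 3.10 in L12YT-ECKO. The members with the highest mean went opposite ways: Mcam, an adhesion molecule, had a difference of 0.83 (1.28 and 0.37 in the knockouts) and Vegfa, the vascular growth factor, one of -0.87 (-1.25 and -0.49).

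Cell cycle lists had medians below WT, with no called member. Of 24 mitosis genes 12 were above and 12 below, with 0 called, 3 lower at an unadjusted p under 0.05 and a median of -0.14. Mki67, the proliferation antigen, was the exception in separation: it was at 9.62 to 10.72 in WT and at 8.13 to 9.46 in the knockouts, a difference of -1.15 (adjusted p = 0.257 by limma). Cenpa and Top2a, with the highest mean, had differences of 0.38 and -0.47. Of 29 DNA replication genes 8 were above and 21 below, with 0 called, 1 higher against 2 lower at an unadjusted p under 0.05 and a median of -0.29; Lig1 and Uhrf1, with the highest mean, had differences of -0.26 and -0.74. Over the 7 libraries without displaced rows the medians were -0.60 for mitosis and -0.62 for DNA replication, lower than over all 12. The DNA replication median stayed below 0 in 25 of 25 alternatives (-0.62 to -0.23), some of which could not move it. Its library medians, though, ran from -0.84 to 0.62 in the knockouts and from -0.38 to 0.29 in WT.

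Pan-endothelial markers had a median of -0.01, with 12 above and 14 below WT, 0 called and 4 lower at an unadjusted p under 0.05. Pecam1 was at 14.66 to 15.13 in WT and at 14.50 to 15.20 in the knockouts. Egfl7 was at 17.72 in every library, the highest value of each table among the rows kept, so it cannot show a difference here. The markers of other cell types were not called either. Hepatocyte markers, with 10 of 21 tested, had a median of 2.62 over all 12 libraries and of -0.09 over the 7 without displaced rows. Myeloid markers, with 12 tested, had a median of 1.25 over all 12 libraries and of 2.65 over the 7, which hold L12-ECKO 1. Mesenchymal, epithelial and red cell and platelet markers had medians of -0.87, -0.52 and -0.48 over all 12 and of -0.04, 0.17 and 0.19 over the 7, so the last pair turned sign.

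**Figure D5:**
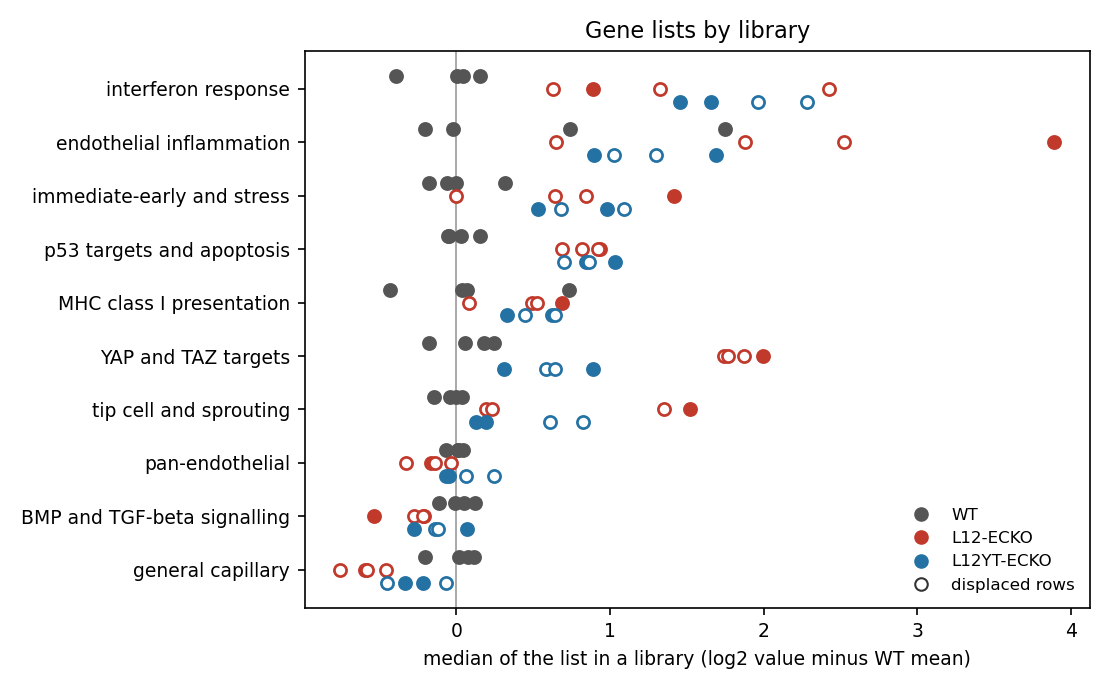
Median over the tested members of each gene list (log2 value minus WT mean) in each library; grey points are WT, red L12-ECKO, blue L12YT-ECKO, and open points have displaced rows. For interferon and p53 genes all 8 knockout points lie right of all WT points (0.63 to 2.42 and 0.69 to 1.03). The same holds for YAP and TAZ targets (0.31 to 2.00), where the L12-ECKO points also lie right of all L12YT-ECKO points, and for tip cell genes (0.13 to 1.52), while inflammation genes overlap with WT.

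Several lists above WT in the pooled comparison were also above it without the libraries that have displaced rows; the hepatocyte list, with the highest pooled median, was not. Over the 7 libraries without displaced rows the medians were 1.30 for interferon genes, 0.86 for p53 targets, 1.01 for immediate-early genes, 0.63 for MHC class I genes and 1.74 for inflammation genes. The corresponding medians over all 12 were 1.58, 0.67, 0.87, 0.40 and 1.54. For MHC class I genes L12-ECKO 1, L12YT-ECKO 1 and L12YT-ECKO 2 (0.69, 0.62 and 0.33) all lay below WT 3 (0.73). For inflammation genes L12YT-ECKO 1 and 2 (1.69 and 0.89) lay below WT 3 (1.75). L12-ECKO 1, with the high myeloid sum, stood at 3.89. General capillary genes were at -0.27 over the 7 and -0.31 over all 12. YAP and TAZ targets were at 0.77 and 1.22, the 7 holding 1 L12-ECKO and 2 L12YT-ECKO libraries. These are descriptions, since the lists were chosen with results of these data known.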

How the data were processed

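RNA of sorted lung endothelial cells was measured in 12 libraries. Per the labels' protocols, libraries were made from Trizol RNA with the Lexogen QuantSeq 3-prime kit; the submitters' processing notes name Bowtie2, edgeR and mm10, in roles and versions not given in the sources used here. Each table deposited by the authors holds 24421 log2 values; quantile normalization is read off the values themselves, whose 5000 highest ranks differ by at most 0.168 between libraries. Such scaling removes differences in total output, and depth cannot be recovered from it.

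Of the 24394 genes named alike in all tables (27 bear date names in 2 of them), 34 rows were left out: 32 of the displaced block, which spans Gt(ROSA)26Sor to Gtpbp8, and Rn45s and Rn4.5s. Genes with a CPM of at least 1, computed as 2 to the power of the value, in at least 4 libraries were tested, 11634 in all. limma 3.58.1 in R 4.3.3 compared 8 knockout with 4 WT libraries, with a trended robust prior (10 residual degrees of freedom, with a prior worth 10.1 at the median) and Benjamini-Hochberg adjustment over all genes tested. A 3 group fit gave each knockout's own difference and that between the knockouts. The scripts were tested on simulated data. Named genes were the 4 targeted genes, the called genes, the next by p until 12 higher and 12 lower were named, Ctgf and Cyr61, and of each list the called members or else the 2 with the highest mean. Promoters are shown for called genes of the list with most calls. The comparison, the 36 gene lists (623 entries) and the rules were chosen with earlier results of these data known. Lists are described by counts and medians and were not tested. Some list members that entered those counts are not reported here by name. Positions are those of GENCODE M21. The alternatives varied the model, block, batch, sex, prior, filter, scale and left-out library.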

Additional observations from a re-analysis of the deposited data

Results flagged for a closer look

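Over the 95 named genes, 26 of 282 combinations of a gene and a group of 4 with unequal values had a library set apart from the other 3, by a gap beyond Dixon's critical value for 4 samples. For normally distributed values chance alone flags about 1 in 20 such groups. A group with 3 values at 0, as for Gen1, Snora64 and Mtmr7, is flagged by any other value, so that rate is no yardstick for this count. Among the targeted genes these were Lats1 at 0.0 in L12YT-ECKO 2, Yap1 at 6.694 in L12YT-ECKO 3 and Wwtr1 at 10.112 in L12-ECKO 4. On the higher side they were Nr4a1 at 9.351 in L12-ECKO 2 and Mtmr7 at 5.496 in WT 3. On the lower side L12YT-ECKO 1 stood apart for Rdx (13.613), Gen1 (3.139), Snora64 (6.292) and Immt (8.811). Others there were Gen1 at 0.856 in L12-ECKO 4, Nedd4 at 11.085 in L12-ECKO 3 and Snora64 at 3.244 in L12-ECKO 1. Among list members they were Amotl1 at 11.691 in WT 1, Eln at 14.166 in L12-ECKO 1, Col1a2 at 8.783 in L12-ECKO 3, Hopx at 7.325 in L12-ECKO 4 and Alb at 0.0 in WT 1. Ldha, a glycolytic enzyme, stood apart in all 3 groups, through WT 1 (10.579), L12-ECKO 4 (10.873) and L12YT-ECKO 4 (11.984). The collagen gene Col4a1 did so in 2 groups, at 13.684 in WT 4 and 14.128 in L12YT-ECKO 4. The rest were Cxcl12 at 13.446 in L12YT-ECKO 3, Flt4 at 7.959 in L12YT-ECKO 2, Rplp1 at 13.462 in L12-ECKO 4 and Sparc at 16.183 in L12YT-ECKO 1.

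For 5 named genes the effect against WT differed between the knockouts by the test of that difference. L12YT-ECKO minus L12-ECKO was -2.25 for Yap1, -2.37 for Wwtr1, -4.23 for Ctgf and -3.47 for Cyr61, with adjusted p of 0.0388, 0.00522, 0.019 and 0.00522 by limma. For Cldn5, which encodes the tight junction protein claudin-5, it was 1.14 (adjusted p = 0.0401 by limma), and the L12YT-ECKO libraries (14.63 to 14.93) lay above all L12-ECKO libraries (13.30 to 14.33), with WT at 14.11 to 14.56. For these 5 genes the pooled difference is a mean of unlike groups.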

How the results depend on the processing

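The count of called genes, 3 as reported, moved with the processing. It was 11 with 3 group means (10 higher, 1 lower), 1 with the replicate block (Bst2), 1 with no trend in the prior variance (Gen1, lower), 7 with values under 5 raised to 5 and 9 with the filter at a value above 5 added to that, an alternative chosen after seeing the data. It was 0 over the 7 libraries without displaced rows, 0 with the displaced rows as a covariate, 0 with that covariate in the fit of 3 group means (also added after seeing the data) and 0 with no filter, where 17225 genes were tested. At an unadjusted p under 0.05 these 4 gave 777, 832, 884 and 1465 genes by limma. Of the genes at an unadjusted p under 0.05, 63.7% were higher as reported, 44.5% over the 7 libraries, 50.5% with the covariate, 51.3% with raised low values and 71.2% with log2(value + 1). Leaving out 1 library gave 0 to 12 calls: 0 without L12-ECKO 2, 12 without WT 3, 7 without L12-ECKO 3, 5 without WT 1, 2 without WT 2 and 2 without L12YT-ECKO 3. Isg15 stayed called in 10 of 12 such fits (lost without WT 4 or L12-ECKO 2), Bst2 in 8 (lost without WT 1, WT 2, WT 4 or L12-ECKO 2) and Pim3 in 8 (lost without WT 1, WT 2, L12-ECKO 2 or L12YT-ECKO 3), with adjusted p up to 0.0799, 0.119 and 0.119 by limma. Over 25 alternatives each kept its sign, at 2.92 to 4.16, 1.61 to 2.19 and 1.50 to 1.92. The list medians of interferon, p53, immediate-early and general capillary genes also kept theirs in 25 of 25, at 0.86 to 1.84, 0.59 to 0.86, 0.67 to 1.01 and -0.40 to -0.24. Alternatives that changed only the error or the prior could not move any of these values. A changed filter could not move a gene's own difference, so part of each count was fixed in advance. The hepatocyte median did not keep its sign (-0.09 to 3.34), nor did the mitosis one (-0.60 to 0.02). The cause of these shifts was not tested. Replicate numbers do not pair the libraries: deviations of same-numbered libraries correlated at -0.047 to 0.058. The unknown depth limits low values most, since 0 in a table may be a gene not sampled.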

Other observations

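Stress lists other than those above were weakly above WT in the pooled comparison. Genes of the amino acid and ATF4 response were above WT for 8 of 10 members tested, with a median of 0.42, and ER chaperones for 11 of 14, with a median of 0.25. Sterol synthesis genes were above for 11 of 17 (median 0.34) and oxidative stress genes for 6 of 10 (median 0.47), where 50.6% of all genes were above. The oxidative stress members with the highest mean, Prdx1 and Sqstm1, had differences of -0.04 and -0.20. Library medians overlapped with WT in each of these lists. For oxidative stress they were -0.26 to 0.93 in the knockouts and -0.26 to 0.31 in WT. The ranges were -0.35 to 0.94 and -0.45 to 0.48 for the ATF4 response, and -0.01 to 0.61 and -0.23 to 0.20 for ER chaperones. For sterol synthesis they were 0.075 to 0.805 and -0.365 to 0.563. At an unadjusted p under 0.05 by limma, 2 ATF4 response and 2 oxidative stress genes were higher. So were 1 ER chaperone and 1 sterol synthesis gene, beside 6.61% of all genes. Genes of nucleic acid sensing, a list that also holds restraints on it, were above for 4 of 10 with a median of -0.06, and 1 was higher at an unadjusted p under 0.05. None of these members was called by limma. Adar, which encodes an RNA-editing enzyme that limits sensing of the cell's own RNA, was at 9.64 to 10.28 in WT and at 8.39 to 10.995 in the knockouts, and the nucleotidase gene Samhd1 at 8.64 to 9.62 and at 7.47 to 10.35. Without the libraries that have displaced rows the medians were 0.63 for the ATF4 response, 0.18 for ER chaperones, 0.29 for sterol synthesis, 0.62 for oxidative stress and -0.46 for nucleic acid sensing.

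Several identity genes stood near WT in one knockout and away from it in the other. Sox17, an arterial transcription factor, was at 13.13 to 13.61 in WT, 11.83 to 12.54 in L12-ECKO and 13.05 to 13.59 in L12YT-ECKO. The imprinted RNA H19 was at 12.42 to 13.70 in WT, at 10.70 to 11.85 in L12-ECKO and at 12.36 to 13.25 in L12YT-ECKO. The difference between the knockouts did not pass for either gene (adjusted p = 0.0597 for both by limma). Aerocyte capillary markers, with 8 of 16 above WT and a pooled median of -0.03, had a median of -0.59 in L12-ECKO and 0.22 in L12YT-ECKO. Arterial genes were below WT for 11 of 15, with a pooled median of -0.26. It was -0.304 in L12-ECKO and 0.006 in L12YT-ECKO. The pooled medians of the remaining lists were 0.08 for venous, 0.04 for lymphatic, 0.05 for junction, 0.04 for Notch, 0.18 for imprinted growth, 0.03 for glycolysis and hypoxia, 0.003 for basement membrane, -0.16 for respiratory chain and -0.002 for cytosolic ribosomal protein genes. A pooled median can lie outside both group medians, as for imprinted growth genes (-0.44 in L12-ECKO and 0.024 in L12YT-ECKO). Cardiac muscle markers, with 5 tested, had a median of -0.93, and 1 lymphoid marker was tested, at 0.77. The 7 libraries without displaced rows gave medians of 0.50 for glycolysis and hypoxia, 0.22 for ribosomal protein genes, -0.45 for arterial and -0.12 for aerocyte genes, 0.20 for venous and -0.20 for lymphatic genes. The medians were -0.11 for junction, -0.04 for Notch, 0.09 for imprinted growth, 0.05 for basement membrane and 0.04 for respiratory chain genes, -2.48 for cardiac markers and 2.16 for the lymphoid marker. Lymphatic, junction, Notch, respiratory chain and ribosomal protein genes thus turned sign, and the cause was not tested.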
